A study of Mus musculus with 12 samples.

Results

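The genes examined were 10 pluripotency and primordial germ cell factors, *Pou5f1*, *Sox2*, *Nanog*, *Sall4*, *Esrrb*, *Utf1*, *Tfap2c*, *Prdm1*, *Prdm14* and *Dppa3*. They were taken by name, and 9 of the 10 had a probe among the 28867 genes of the array, while *Prdm14* had none under its name and was not measured here. Of these, 7 carried the symbol itself, *Tfap2c* was listed under its older symbol *Tcfap2c*, and *Nanog* was recognized from the description of its probe. All 9 passed the filter on dim probes, which left 18666 genes.

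RNA was taken from mouse gonads at E14.5, 1 pair per sample, and hybridised to 12 Agilent arrays with a single colour, 3 in each of 4 groups of mixed strain background. The sources used here do not say whether the embryos of a group came from different litters, and p-values measure only the spread between these samples. All embryos had received tamoxifen through the mother at E9.5 and E10.5, and all controls were Stra8+/-. Control ovary 1 was Smad4Flox/+ with the StellaMerCreMer transgene, control ovary 2 was Smad4Flox/+ without it and control ovary 3 was Smad4Flox/Flox without it, so that no allele combination was replicated among them. The 3 control testes were Smad4Flox/+ with StellaMerCreMer. The 3 *Smad4 (Stella)* ovaries were Smad4flox/flox with MerCreMer and Stra8+/−, and the 3 DKO ovaries were Smad4flox/flox with MerCreMer and Stra8−/−. The Cre was driven by the regulatory element of *Stella*, another name of *Dppa3*, recombination varied between cells, and the gonads were analysed whole, so mutant germ cells were measured together with unrecombined germ cells and with somatic cells. In whole gonads, a different number of cells of a type and a different amount of RNA per cell cannot be told apart.

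Primordial germ cells carry the core pluripotency factors of the early embryo, and they lose them as they enter meiosis in the fetal ovary or arrest in the fetal testis. *Pou5f1* (OCT4), *Sox2* and *Nanog* form the centre of that network, *Sall4*, *Esrrb* and *Utf1* act beside them, and *Prdm1* (BLIMP1), *Prdm14* and *Tfap2c* (AP2-gamma) specify the germ line in the early embryo. *Dppa3* (STELLA) marks primordial germ cells and is a maternal factor of the oocyte.

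The probes of the measured factors are 60 bases long. Printed here are 3 of them, each of which can be read without a stop codon in at least 2 frames, because each value below for *Pou5f1* and *Utf1* comes from 1 such probe and because the 2 *Sall4* probes responded unequally. Where they lie within the transcript was not annotated here. In mm9, the build of the array design, their positions are chr17:35647280-35647340, chr7:147130120-147130179 and chr2:168578172-168578231.
Pou5f1 probe (plus strand): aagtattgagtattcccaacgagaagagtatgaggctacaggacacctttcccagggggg
Utf1 probe (plus strand): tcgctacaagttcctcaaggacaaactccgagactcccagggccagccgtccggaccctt
Sall4 probe, 1 of 2 (minus strand): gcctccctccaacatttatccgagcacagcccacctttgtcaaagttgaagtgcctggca

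Promoters are shown for the 5 factors that were higher in DKO ovaries and have one in the RefSeq table, as the 250 bases before the first listed start in GRCm38.p6, all on the plus strand. *Sall4*, *Tfap2c*, *Prdm14* and *Dppa3* had no entry. Capitals mark a match to the SOX letters AACAAT on either strand.
Pou5f1, chr17:35505782-35506031: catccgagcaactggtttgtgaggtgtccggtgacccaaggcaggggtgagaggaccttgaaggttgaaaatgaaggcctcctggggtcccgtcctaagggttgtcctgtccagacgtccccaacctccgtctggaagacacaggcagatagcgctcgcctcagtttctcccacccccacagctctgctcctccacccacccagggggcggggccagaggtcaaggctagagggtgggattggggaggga
Sox2, chr3:34649745-34649994: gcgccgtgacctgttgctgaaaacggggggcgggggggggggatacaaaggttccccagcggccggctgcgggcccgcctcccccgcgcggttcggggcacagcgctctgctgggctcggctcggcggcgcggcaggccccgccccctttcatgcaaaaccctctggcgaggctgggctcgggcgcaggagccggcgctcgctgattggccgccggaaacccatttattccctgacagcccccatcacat
Nanog, chr6:122707239-122707488: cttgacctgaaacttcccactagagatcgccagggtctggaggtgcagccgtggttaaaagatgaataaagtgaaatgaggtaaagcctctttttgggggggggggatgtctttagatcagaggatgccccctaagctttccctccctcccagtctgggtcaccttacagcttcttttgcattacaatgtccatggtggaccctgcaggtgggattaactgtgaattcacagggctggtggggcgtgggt
Esrrb, chr12:86360867-86361116: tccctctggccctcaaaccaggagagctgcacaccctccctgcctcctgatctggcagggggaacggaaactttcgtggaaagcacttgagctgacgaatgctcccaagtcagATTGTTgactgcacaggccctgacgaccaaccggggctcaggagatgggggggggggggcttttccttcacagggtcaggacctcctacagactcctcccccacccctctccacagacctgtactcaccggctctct
Utf1, chr7:139943606-139943855: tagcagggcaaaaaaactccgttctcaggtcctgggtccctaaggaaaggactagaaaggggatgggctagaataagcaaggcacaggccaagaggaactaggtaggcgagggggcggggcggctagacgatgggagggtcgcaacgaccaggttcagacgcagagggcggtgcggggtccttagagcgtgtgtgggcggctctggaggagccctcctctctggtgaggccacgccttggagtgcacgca
The letters searched on both strands were ATGCAAAT (octamer), AACAAT (SOX), GTCTAGAC (a SMAD palindrome) and GGCGCC (a GC-rich SMAD element). Over all 32851 promoters of this length they were present in 1.60%, 9.42%, 0.167% and 9.59%, respectively. Among the 9 starts listed for 6 of the factors, only the SOX letters were found, 137 bases before the first *Esrrb* start on the minus strand and 159 bases before the second *Pou5f1* start on the plus strand. These matches describe the letters of the windows and no binding.

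Values are log2 of the spot intensity after subtraction of the 75th percentile of the array, called the relative level, and a level of 0 is that percentile. Groups were compared with limma over all 12 arrays, with Benjamini-Hochberg adjustment over all genes, and a difference is named a call where the adjusted p was under 0.05 and the fold at least 1.5. All comparisons with control ovaries share the same 3 arrays. The summed level of Sertoli markers ran from 7.02 to 7.20 in testes and from 1.17 to 1.81 in the ovaries of all groups. Of the 18 genes of the Sertoli, pregranulosa and fetal Leydig lists that passed the filter, 0 were called between DKO and control ovaries or between *Smad4 (Stella)* and control ovaries (limma). *Ddx4* and *Dazl*, which germ cells of both sexes express, differed between DKO and control ovaries by 0.14 ± 0.15 (SE) and -0.08 ± 0.14 on the log2 scale. *Smad4* differed by -0.13 ± 0.14 and *Stra8* fell by 1.02 ± 0.18 in DKO ovaries (adjusted p = 0.00270, limma), and in *Smad4 (Stella)* ovaries the differences were -0.03 ± 0.14 and -0.10 ± 0.18. Whether the probes of *Smad4* and *Stra8* lie inside the deleted parts is not given in the sources used here, so these values do not check the genotypes.

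Control ovary 1 stood apart from the other 2 for these factors. All 9 were higher in it than in both control ovaries 2 and 3, by 0.76 to 1.84 on the log2 scale with a median of 1.39, whereas the median over all genes was -0.04 and 35.5% of all genes were higher in it than in both. It was the only control ovary with the Cre transgene and the only one on slide 1, which also held the 3 testes. All mutant ovaries and testes carried the Cre, so fits without control ovary 1 set carriers against non-carriers. Control ovaries 2 and 3 shared slide 2 with DKO ovaries 1 and 2, and slide 3 held the *Smad4 (Stella)* ovaries and DKO ovary 3, so the genotype of control ovary 1 and its slide cannot be told apart. Control ovary 1 was also the dimmest array, with 58.8% of probes well above background and a 75th percentile of 476. DKO ovary 3 came next with 60.4% and 533, and the highest share was 70.5%. The part of array brightness in these differences was not tested. Results against control ovaries are therefore also given with control ovary 1 left out, within slides, and with control ovary 1 as the only control, an alternative chosen after seeing the data in which the lone array is taken to vary like the other groups.

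In DKO ovaries the 3 core factors and their partners were higher than in control ovaries. *Pou5f1* was at 1.31, 1.07 and 1.01 in the DKO ovaries and at -0.24, -1.97 and -1.37 in the control ovaries. The groups did not overlap, and the level was higher in DKO ovaries (log2 difference 2.32 ± 0.40 SE, n = 3 per group, adjusted p = 0.00201, limma). *Sox2* was at 1.12, 1.73 and 1.41 against 0.25, -1.41 and -0.84, again without overlap. It was 4.24-fold higher (log2 2.08 ± 0.41, adjusted p = 0.00438, limma).

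*Nanog* showed the largest difference of the 9 factors. DKO ovaries had relative levels of -1.42, -0.99 and -2.11 against -4.68, -6.76 and -5.60 in control ovaries, where the probe was well above background only in control ovary 1. All DKO arrays were above all control arrays, the log2 difference was 4.17 ± 0.49 and the adjusted p was 0.000234 (limma). Since 2 of the 3 control values lay near the background, the corresponding 18.0-fold is less certain than the other folds.

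The partners followed the same order. *Esrrb*, an orphan nuclear receptor, was at -0.61, -0.25 and -1.38 in DKO ovaries and at -2.53, -4.36 and -3.79 in control ovaries, which did not overlap and differed 7.03-fold (log2 2.81 ± 0.48, adjusted p = 0.00192, limma). *Utf1*, a chromatin-associated factor of undifferentiated cells, was at -0.69, -0.17 and -1.51 against -2.81, -3.50 and -3.87, 6.08-fold higher (log2 2.61 ± 0.40, adjusted p = 0.00112, limma). DKO ovary 3 was the lowest DKO array for both genes and still above every control ovary.

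*Sall4*, a zinc finger factor, had the smallest called difference. It was at -1.18, -0.83 and -1.36 in DKO ovaries and at -2.11, -3.04 and -2.71 in control ovaries, 2.82-fold higher without overlap (95% interval of the log2 difference 0.91 to 2.08, adjusted p = 0.00238, limma). Its 2 probes moved by different amounts. The probe shown above ranged from -2.31 to -1.94 in DKO ovaries and from -2.96 to -2.84 in control ovaries, and the other probe ranged from -0.40 to 0.28 and from -3.12 to -1.39. Neither probe overlapped between the groups.

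*Dppa3*, the germ cell marker of the set, rose as well. It was at 5.43, 5.24 and 4.98 in DKO ovaries and at 4.11, 2.19 and 2.35 in control ovaries, 5.02-fold higher without overlap (log2 2.33 ± 0.43, adjusted p = 0.00332, limma). The gap between control ovary 1 and the other 2 was wider for *Dppa3*, whose regulatory element drives the Cre in that ovary, than for any other factor, and whether the transgene contributes signal was not tested.

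The 2 measured specification factors were not called. *Prdm1* was at -1.15, -0.91 and -1.28 in DKO ovaries and at -1.13, -1.95 and -2.16 in control ovaries, which overlapped (log2 difference 0.63, 95% interval 0.08 to 1.19, adjusted p = 0.0968, limma). *Tfap2c* was at -0.71, -1.08 and -1.16 against -0.72, -2.44 and -1.77 (log2 difference 0.66, 95% interval -0.19 to 1.51, adjusted p = 0.262, limma). In both cases control ovary 1 lay within the DKO values while the other 2 control ovaries lay below all of them.

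**Figure D1:**
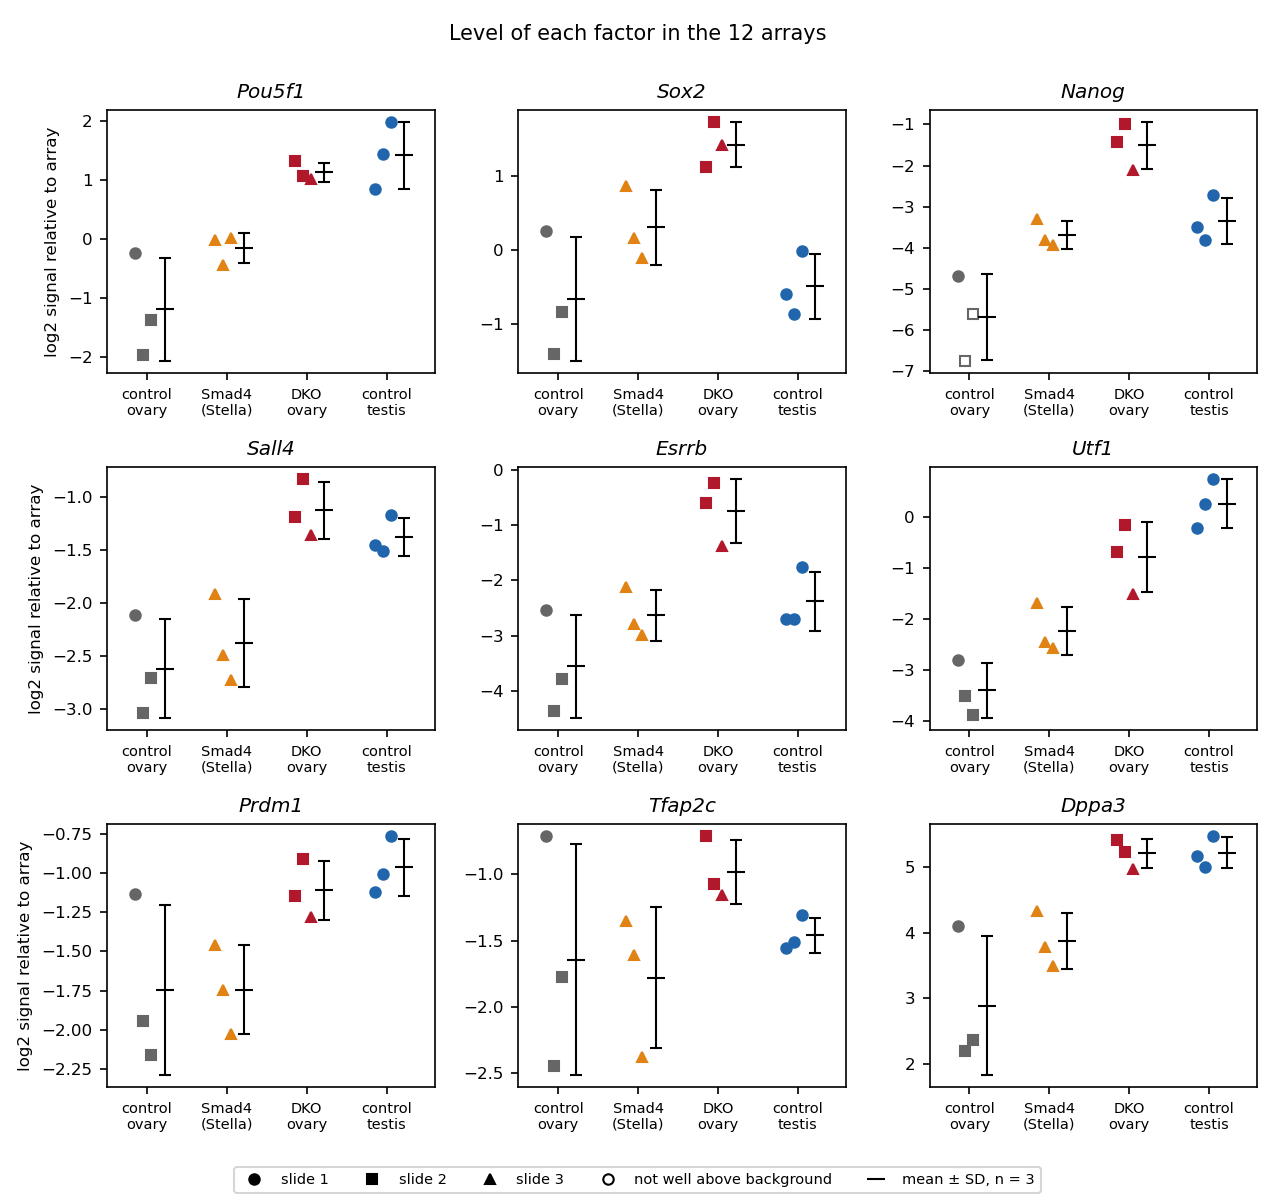
Relative log2 level (y axis, 0 is the 75th percentile of the array) of the 9 measured factors in the 4 groups (x axis), 1 point per array, with the symbol giving the slide, open symbols for arrays not well above background, and the mean ± SD of 3 arrays beside them. The DKO arrays lie above all control ovary arrays for 7 factors, and the grey circle, control ovary 1, is the highest control ovary in every panel.

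In total 7 of the 9 measured factors were called higher in DKO ovaries and 0 lower, where 6.71% of all genes were called higher. The median log2 difference was 2.32, against 0.00 over all genes. The arrays did not overlap for 7 of 9, where 32.9% of all genes did not overlap. Without control ovary 1 all 9 were called, where 15.4% of all genes were called in either direction, and the median was 2.80. Here all DKO and no control ovaries carried the Cre, which also holds for slide 2, so Cre and deletions cannot be told apart. On slide 2, which held 2 DKO and 2 control ovaries, all 9 differences were positive. They ran from 1.03 for *Prdm1* to 3.64 for *Esrrb*, and *Nanog*, which was not well above background in either control ovary of that slide, was at least 23.5-fold higher. Against control ovary 1 alone, all 3 DKO arrays were higher for the same 7 factors, but only *Pou5f1*, *Nanog* and *Utf1* were called, where 12% of all genes were. Their log2 differences were 1.37, 3.17 and 2.02, and that for *Tfap2c* was -0.27.

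The share of germ cells could differ between groups, so the levels were also taken relative to *Ddx4*. Under this scaling the same 7 factors were called in DKO against control ovaries, where 12.8% of all genes were called in either direction, with log2 differences from 1.35 for *Sall4* to 4.03 for *Nanog* (limma). The exact permutation test of 3 arrays against 3 gave p = 0.1 for each of the 7, the smallest it can give. Over all genes this scaling shifted the median difference by -0.14. The summed level of the list of genes of germ cells of both sexes ran from 6.59 to 6.83 in DKO ovaries and from 5.82 to 6.38 in control ovaries. On that list *Tex19.1* rose by 1.89, *Stk31* fell by 0.67 and *Rnf17* fell by 1.05, named after their values were seen, while the other 3 of its 6 measured genes were not called.

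**Figure D2:**
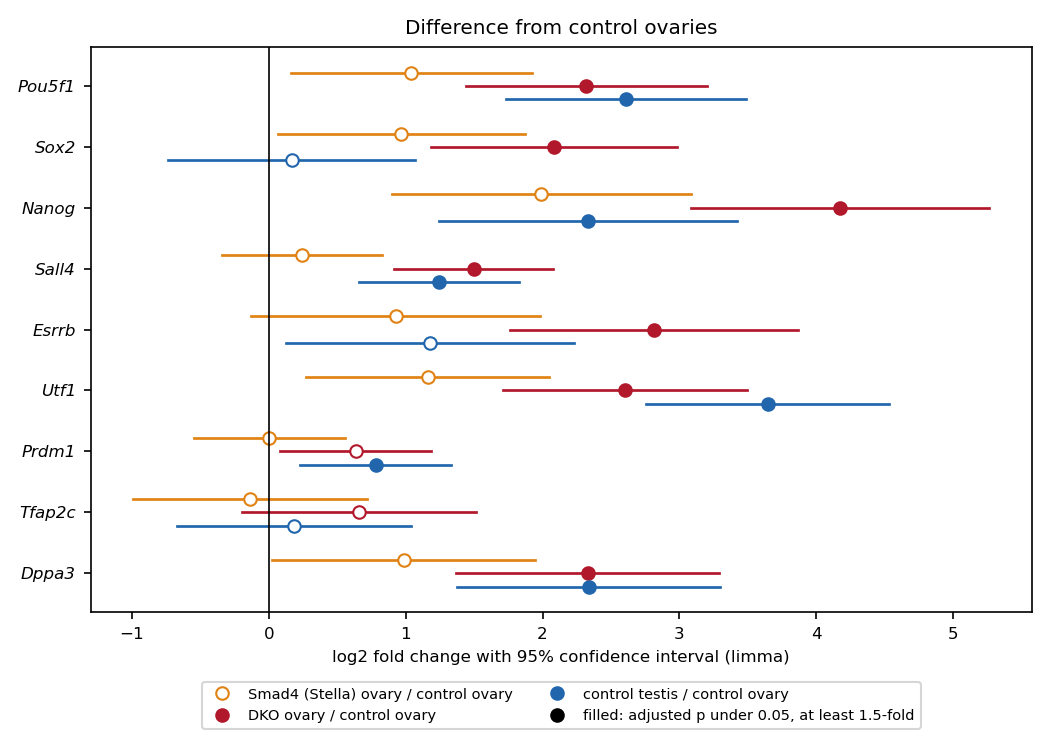
Log2 fold change (x axis) of each factor (y axis) against control ovaries in *Smad4 (Stella)* ovaries, DKO ovaries and control testes, with 95% confidence intervals from limma and filled points for called differences. *Sox2* and *Esrrb* are filled for DKO ovaries only and *Prdm1* for testes only, while no point is filled for *Smad4 (Stella)* ovaries.

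In *Smad4 (Stella)* ovaries, in which *Smad4* was deleted and 1 allele of *Stra8* was kept, 0 of the 9 measured factors were called against control ovaries, where 0.279% of all genes were called. With unadjusted p under 0.05 there were 5 in limma, *Pou5f1*, *Sox2*, *Nanog*, *Utf1* and *Dppa3*, and 2 in the methods' t-test, which called 0 after adjustment. *Nanog* was at -3.30, -3.82 and -3.95, above all 3 control ovaries, with a log2 difference of 1.99 and a 95% interval of 0.90 to 3.08 (adjusted p = 0.0877, limma). *Utf1* was at -1.69, -2.45 and -2.56, also above all control ovaries, by 1.16 (95% interval 0.27 to 2.05, adjusted p = 0.164, limma). These 2 were the only factors without overlap, where 28.1% of all genes did not overlap.

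The other 7 factors in *Smad4 (Stella)* ovaries overlapped with the control ovaries. *Pou5f1* was at -0.02, -0.45 and 0.01 (log2 difference 1.04, 95% interval 0.16 to 1.92, adjusted p = 0.193, limma), and *Sox2* was at 0.86, 0.16 and -0.12 (0.97, 0.07 to 1.87, adjusted p = 0.228). *Dppa3* was at 4.34, 3.78 and 3.49 (0.99, 0.02 to 1.95, adjusted p = 0.245, limma), and *Esrrb* was at -2.12, -2.78 and -3.00 (0.93, -0.13 to 1.98, adjusted p = 0.303). For these 4 genes control ovary 1 fell inside the mutant range and control ovaries 2 and 3 fell below it. *Sall4*, at -1.91, -2.49 and -2.72, *Prdm1*, at -1.46, -1.75 and -2.03, and *Tfap2c*, at -1.35, -1.61 and -2.37, differed by 0.24, 0.00 and -0.14, with 95% intervals of -0.34 to 0.83, -0.55 to 0.55 and -0.99 to 0.72.

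The control ovaries used decided much of this comparison. The median log2 difference over the 9 factors was 0.97, it was 1.44 without control ovary 1, when *Dppa3* was called (log2 1.60, adjusted p = 0.0451, limma), and it was -0.10 against control ovary 1 alone, when 4 factors were higher and 5 lower and 0 were called. No slide held both *Smad4 (Stella)* and control ovaries, and with the slide as a block 0 were called and the median was 1.70. Relative to *Ddx4*, 0 factors were called, where 0.134% of all genes were, and 7 of 9 did not overlap, where 27.0% of all genes did not. *Ddx4* itself had a mean of 4.81 in *Smad4 (Stella)* and 5.06 in control ovaries, and this scaling moved the median of all genes to 0.22. Some gaps were narrow. The lowest *Smad4 (Stella)* and highest control array were at -7.39 and -7.44 for *Sall4* and at -1.17 and -1.22 for *Dppa3*.

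DKO and *Smad4 (Stella)* ovaries differ by design in *Stra8*, and the 9 factors were all higher in DKO ovaries with no overlap between the arrays, where 31.2% of all genes did not overlap. Of these, *Nanog*, *Sall4*, *Esrrb* and *Utf1* were called, where 4.40% of all genes were called higher. *Nanog* was 4.54-fold higher (log2 2.18 ± 0.49, adjusted p = 0.0176, limma) and *Esrrb* 3.70-fold (log2 1.89 ± 0.48, adjusted p = 0.0278). *Utf1* was 2.72-fold higher (log2 1.44 ± 0.40, adjusted p = 0.0422, limma) and *Sall4* 2.39-fold (log2 1.25 ± 0.26, adjusted p = 0.0126). The other 5 differed by 0.63 to 1.34 with adjusted p from 0.0629 for *Pou5f1* to 0.222 for *Tfap2c*.

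These calls were less stable than those against control ovaries. On slide 3, which held DKO ovary 3 and all *Smad4 (Stella)* ovaries, all 9 differences were positive, from 0.46 for *Prdm1* to 1.58 for *Nanog*. With the slide as a block 0 were called, where 4.93% of all genes were called in either direction. The count fell to 0 without *Smad4 (Stella)* ovary 2 (4.57% of all genes) or without *Smad4 (Stella)* ovary 3 (5.24%). It fell to 1, *Sall4*, without DKO ovary 1 (6.54%) or without DKO ovary 2 (7.26%). Relative to *Ddx4*, 3 were called, *Nanog*, *Sall4* and *Esrrb*, where 13.6% of all genes were and the median of all genes moved to -0.38.

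**Figure D3:**
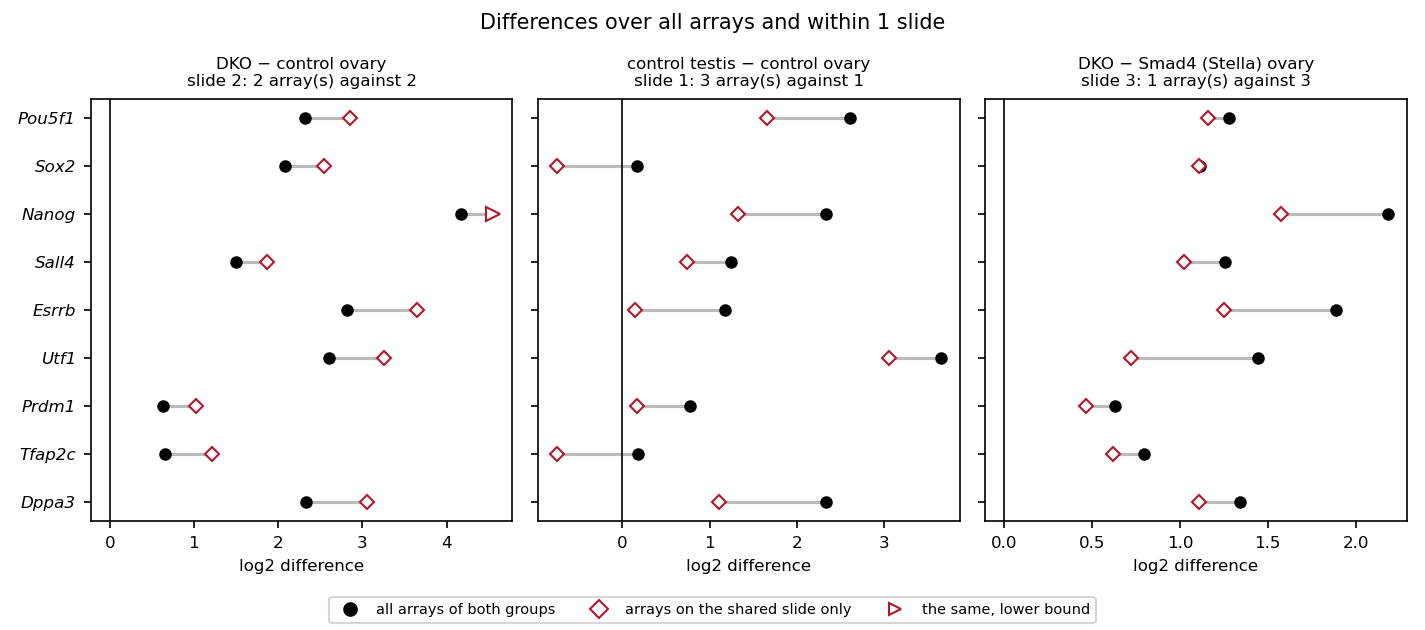
Log2 difference (x axis) of each factor (y axis) over all arrays of both groups (filled circles) and over the arrays of the shared slide (open diamonds, or a triangle at a lower bound), for DKO against control ovaries on slide 2, control testes against control ovary 1 on slide 1, and DKO ovary 3 against *Smad4 (Stella)* ovaries on slide 3. All open symbols are above 0 in the first and last panels, with *Nanog* at a bound in the first, and *Sox2* and *Tfap2c* fall below 0 in the middle panel.

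Control testes, in which germ cells do not enter meiosis at this stage, differed from control ovaries in part of the same factors. *Utf1* showed the largest difference, at -0.23, 0.25 and 0.73 in testes, 12.5-fold above control ovaries (log2 3.64 ± 0.40, adjusted p = 3.85e-05, limma). *Pou5f1* was at 0.84, 1.43 and 1.97 (log2 2.61 ± 0.40, adjusted p = 0.000348), and *Dppa3* was at 5.18, 5.01 and 5.48 (log2 2.34 ± 0.43, adjusted p = 0.00129, limma). Neither overlapped with control ovaries.

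*Nanog* was at -3.51, -3.81 and -2.73 in testes (log2 2.33 ± 0.49, adjusted p = 0.00280, limma), and *Sall4* was at -1.45, -1.51 and -1.17 (log2 1.24 ± 0.26, adjusted p = 0.00288). *Prdm1* was at -1.12, -1.01 and -0.77 and was called (log2 0.78 ± 0.25, adjusted p = 0.0244, limma), with its lowest testis array just above control ovary 1. Thus 6 of 9 factors were called higher, where 17.2% of all genes were, and 6 of 9 did not overlap, where 58.5% of all genes did not.

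*Sox2*, *Esrrb* and *Tfap2c* were not called between testes and control ovaries. *Sox2* was at -0.60, -0.87 and -0.02 in testes, within the control ovary range (log2 difference 0.17, 95% interval -0.73 to 1.07, adjusted p = 0.761, limma). *Tfap2c* was at -1.56, -1.51 and -1.31 (0.18, -0.67 to 1.04, adjusted p = 0.724), and *Esrrb* was at -2.69, -2.70 and -1.76 (1.18, 0.12 to 2.23, adjusted p = 0.0639). On slide 1, against control ovary 1, the differences were -0.75, -0.74 and 0.15. Against that ovary alone only *Pou5f1*, *Utf1* and *Dppa3* were called, where 32.5% of all genes were called in either direction. Without control ovary 1, 7 of 9 were called, where 34.6% of all genes were, *Esrrb* among them (log2 1.69, adjusted p = 0.00848, limma). Relative to *Ddx4*, whose own level differed in testes by -0.57 ± 0.15 (adjusted p = 0.0115, limma), 8 of 9 were called, all but *Sox2*, where 51.3% of all genes were called and the median of all genes moved to 0.59.

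DKO ovaries were above testes in 3 factors. *Sox2* was higher in DKO ovaries than in testes by 1.92 ± 0.41 (adjusted p = 0.00421, limma), *Nanog* by 1.84 ± 0.49 (adjusted p = 0.0138) and *Esrrb* by 1.64 ± 0.48 (adjusted p = 0.0204). These 3 were the only factors called, where 12.7% of all genes were called higher. For each of them the 3 DKO arrays lay above the 3 testis arrays, and 50.5% of all genes did not overlap between these groups. *Sox2* was called in every fit that left out 1 array, but *Nanog* and *Esrrb* were not. Without control testis 2 only *Sox2* was called, without control testis 1 or DKO ovary 1 *Esrrb* was lost, and without DKO ovary 2 *Sox2* and *Utf1*, the latter lower, were the calls.

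For the other 6 factors no call was made. The log2 difference of DKO ovaries from testes was -0.01 for *Dppa3* (95% interval -0.97 to 0.95), -0.29 for *Pou5f1* (-1.16 to 0.59) and -1.04 for *Utf1* (-1.93 to -0.15, adjusted p = 0.0653, limma). Relative to *Ddx4*, which was higher in DKO ovaries than in testes by 0.71 ± 0.15, 5 factors were called. *Sox2* and *Nanog* were higher in DKO ovaries by 1.20 and 1.13, and *Utf1*, *Prdm1* and *Pou5f1* were lower, with log2 differences of -1.75 for *Utf1* and -0.86 for *Prdm1* and that of *Pou5f1* between them, where 59.2% of all genes were called in either direction. No slide held both groups. With the slide as a block they are linked through the control ovaries, of which only control ovary 1 lay on the slide of the testes. In that fit the direction of several factors turned. All 9 were then higher in DKO ovaries, with a median of 1.95 against 0.25, and *Dppa3* (log2 1.95) and *Tfap2c* (log2 1.96) were called by limma besides *Sox2*, *Nanog* and *Esrrb*.

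*Smad4 (Stella)* ovaries were lower than testes in 5 factors, *Pou5f1*, *Sall4*, *Utf1*, *Prdm1* and *Dppa3*, where 16.3% of all genes were called lower. The log2 differences ran from -2.48 ± 0.40 for *Utf1* (adjusted p = 0.000625, limma) to -0.78 ± 0.25 for *Prdm1* (adjusted p = 0.0267). The groups did not overlap for any of the 5, where 63.8% of all genes did not. Only *Pou5f1*, *Sall4* and *Utf1* were called without control testis 3, without *Smad4 (Stella)* ovary 2 or without *Smad4 (Stella)* ovary 3. The groups shared no slide, and with the slide as a block their link rests on DKO ovary 3 and control ovary 1. With the slide as a block 0 factors were called, where 17.2% of all genes were. In that fit 8 of 9 were higher in *Smad4 (Stella)* ovaries, with a median log2 difference of 0.84 against -0.78. Of the 5 only *Utf1* kept a negative difference.

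Taken by group means, *Nanog* ran from DKO ovaries through testes and *Smad4 (Stella)* ovaries to control ovaries, and testes and *Smad4 (Stella)* ovaries were neighbours that did not differ in the test (log2 -0.34, 95% interval -1.43 to 0.75). *Sall4* and *Esrrb* had the same order, and the test did not separate testes from *Smad4 (Stella)* ovaries for *Esrrb* or from DKO ovaries for *Sall4*. *Utf1*, *Pou5f1* and *Dppa3* ran from testes through DKO and *Smad4 (Stella)* ovaries to control ovaries, with testes and DKO ovaries not separated. DKO and *Smad4 (Stella)* ovaries were separated for *Utf1* but not for *Pou5f1* or *Dppa3*. *Prdm1* had that order with no neighbours separated, and *Tfap2c* ran from DKO ovaries through testes and control ovaries to *Smad4 (Stella)* ovaries with no neighbours separated. *Smad4 (Stella)* and control ovaries were not separated for any factor. *Sox2* ran from DKO ovaries through *Smad4 (Stella)* and control ovaries, with means of 1.42 ± 0.30 (SD), 0.30 ± 0.50 and -0.66 ± 0.84, and testes stood at -0.50 ± 0.43, between the last 2 and not separated from either. DKO and *Smad4 (Stella)* ovaries were not separated for *Sox2*.

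Genes that surround these factors in the pluripotency network, from a list of 27, rose in part. Of 23 that passed the filter, 11 were called higher in DKO than in control ovaries and 0 lower, where 6.71% of all genes were called higher. Their median log2 difference was 0.59, against 0.00 over all genes. In *Smad4 (Stella)* ovaries 0 were called, where 0.279% of all genes were. *Dppa4*, a nuclear factor of pluripotent cells, rose by 3.38 ± 0.49 (adjusted p = 0.000793, limma). The Krüppel-like factors *Klf5* and *Klf2* rose by 1.26 ± 0.17 and 0.63 ± 0.10, and *Nr5a2*, an orphan nuclear receptor, by 0.94 ± 0.13. *Tcl1*, a coactivator of AKT, rose by 2.19 ± 0.39, and *Gdf3*, a ligand of the TGF-beta family, by 2.53 ± 0.41, whose probe passed the background limit in 1 control ovary. Adjusted p for these 5 lay between 0.000486 and 0.00252 (limma), and *Dppa2*, the partner of *Dppa4*, rose by 1.71 ± 0.33 (adjusted p = 0.00396). In testes 6 of the 23 were called higher than in control ovaries and 3 lower, where 34% of all genes were called in either direction. Mean levels in testes and control ovaries were 3.57 and -1.28 for *Dppa4* and -1.43 and -3.38 for *Tcl1*. They were -1.85 and -3.09 for *Dppa2* and -1.70 and -2.29 for *Nr5a2*. *Kit*, *Klf5* and *Klf2* differed between testes and control ovaries by 0.14, -0.03 and -0.05, and none of these 3 was called there.

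Of the 15 other primordial germ cell genes, all of which passed the filter, 0 were called in *Smad4 (Stella)* ovaries, where 0.279% of all genes were. In DKO ovaries 7 were called higher and 0 lower, where 6.71% of all genes were called higher. The 7 were *Nanos3*, *Nanos2*, *Tdrd5*, *Cdh1*, *Kit*, *Dnd1* and *Alpl*. *Nanos3*, an RNA-binding protein that keeps primordial germ cells alive, rose by 3.82 ± 0.39 (adjusted p = 0.000112, limma) and its probe also passed that limit in 1 control ovary. *Nanos2*, its relative in male germ cells, was not well above background in any control ovary and was at least 7.45-fold higher in DKO ovaries and at least 43.0-fold higher in testes. *Cdh1* (E-cadherin) rose by 2.82 ± 0.42 and *Tdrd5*, a Tudor domain protein, by 2.49 ± 0.34. *Dnd1*, an RNA-binding partner of NANOS proteins, rose by 2.49 ± 0.46, *Alpl*, the alkaline phosphatase by which primordial germ cells are stained, by 1.77 ± 0.33, and *Kit*, the receptor for stem cell factor, by 1.20 ± 0.20. The smallest adjusted p of these 5 was 0.000586 and the largest 0.00331 (limma). In testes 6 of the 15 were called higher than in control ovaries and 4 lower, where 34% of all genes were called in either direction. Mean levels in testes and control ovaries were -1.27 and -5.64 for *Nanos3* and 3.33 and -0.28 for *Dnd1*. They were -0.38 and -3.60 for *Tdrd5* and -0.33 and -2.58 for *Cdh1*. In testes *Kit* and *Alpl* differed from control ovaries by 0.14 ± 0.20 and 0.11 ± 0.33.

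**Figure D4:**
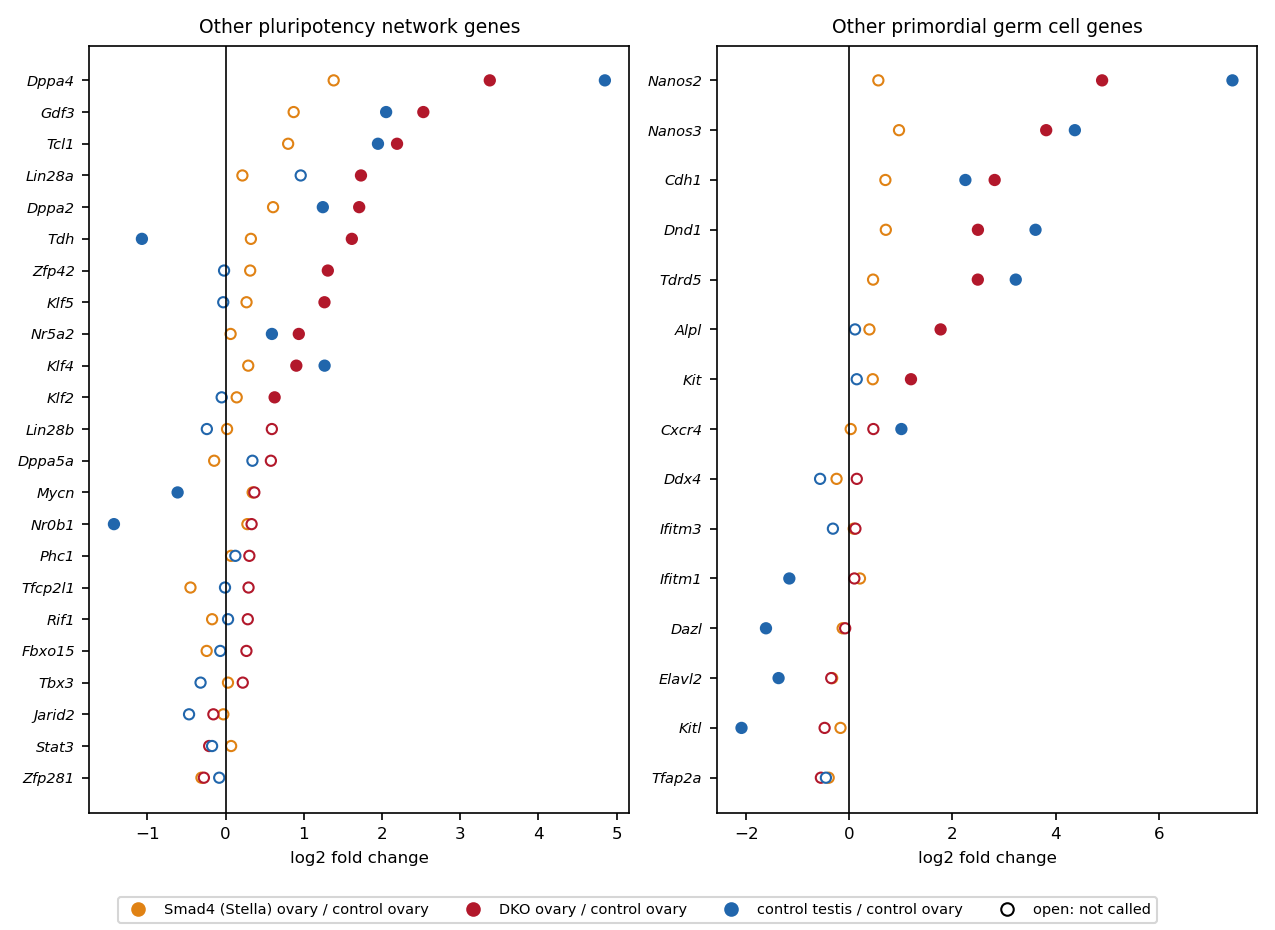
Log2 fold change (x axis) against control ovaries of the genes listed beside the factors (y axis), pluripotency network genes on the left and primordial germ cell genes on the right, with filled points for called differences. In DKO ovaries 11 of 23 and 7 of 15 are filled, all above 0, where 6.71% of all genes were called higher. None is filled for *Smad4 (Stella)* ovaries.

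Marker genes of other cell types are given beside all genes, of which 14.7% were called in either direction between DKO and control ovaries. In DKO against control ovaries 1 of 5 macrophage genes was higher, *Cd68* by 0.72, 1 of 4 mesonephric genes, *Lhx1* by 1.54, and 1 of the 4 neural genes that passed the filter, *Elavl4* by 0.93, while 1 of 5 erythroid genes was lower, *Hbb-y* by -1.15 without control ovary 2, where its spot was an outlier. These 4 were named after their values were seen. Of 5 endothelial genes 0 were called. In *Smad4 (Stella)* against control ovaries 0 genes of any marker list were called (limma), where 0.279% of all genes were. The summed macrophage level ran from 1.16 to 2.69 in DKO ovaries and from 1.09 to 1.51 in control ovaries, and the summed erythroid level from 7.71 to 7.82 and from 8.11 to 8.47, over the 4 genes with a value on every array. The summed mesonephric level ran from -1.86 to -1.41 and from -1.69 to -1.57, and the summed neural level from -0.06 to 0.12 and from -0.56 to -0.27. Their part in the differences above was not tested.

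The genes outside the list whose centred levels were most like each factor over the 12 arrays were measured by the root mean square of the difference. For *Dppa3* this was *Wnt3*, with a root mean square difference of 0.26 on the log2 scale, followed by *Tcl1* and *Camkv*. *Wnt3* was also nearest to *Pou5f1*, at 0.30 against a spread of 1.13 of *Pou5f1* itself, before *Slc35f2* and *Tex21*. The mean level of *Wnt3* was -4.72 ± 0.75 (SD, n = 3) in control ovaries, -3.71 ± 0.55 in *Smad4 (Stella)* ovaries, -2.23 ± 0.33 in DKO ovaries and -2.03 ± 0.48 in testes.

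*Sox2* was nearest to *Ap3b2*, at 0.28, and *Esrrb* to *Prr23a3*, at 0.36, and *Gm9* ranked next for both, at 0.32 and 0.39. *Gm9* had a mean of -1.84 ± 0.60 (SD, n = 3) in control ovaries, -0.75 ± 0.46 in *Smad4 (Stella)* ovaries, 0.57 ± 0.44 in DKO ovaries and -1.32 ± 0.38 in testes. *Nanog* was nearest to *Slc1a1*, at 0.38, *Sall4* to *Acot10*, at 0.16, *Utf1* to *Zfp819*, at 0.27, and *Prdm1* to *Mcm10*, at 0.14. Their further neighbours were *Nlrp4c* and *Zfp640*, *Gtf2a1l* and *Katnal2*, the array entry TC1610785 and *Mbl2*, and *Tbc1d25* and *Plekhf2*. The third gene was a transcript with no symbol for *Sox2* and *Igfbpl1* for *Esrrb*. These likenesses describe 12 arrays from 4 groups that share slides. *Slc1a1* had means of -7.85 in control ovaries, -6.09 in *Smad4 (Stella)* ovaries and -5.57 in testes. The lowest levels well above background ran from -6.19 to -5.14 over the arrays, so its likeness to *Nanog* rests in part on dim values.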

How the data were processed

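The authors deposited the Feature Extraction 11.0.1.1 output of 12 single-colour Agilent arrays, in which the spot intensity is already background-corrected. They also deposited a table of intensities, which differed from that output by at most 0.497% at any probe and was not scaled between arrays. Here log2 of the intensity was taken and the array's 75th percentile over non-control spots subtracted. Spots marked as outliers were dropped. Of 41174 probes, the 27311 that were well above background in all arrays of 1 group or more were kept, and probes of a gene were averaged. Symbols were updated through the RefSeq table (GRCm38.p6) for 31794 probes, and promoters came from RefSeq.

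One limma model (version 3.58.1, R 4.3.3, package data.table at 1.17.8) covered the 12 arrays, with no block, and was tested on simulated data. Calls needed an adjusted p under 0.05 and 1.5-fold. Exact permutation tests were two-sided. Alternatives were quantile normalization, the deposited table, *Ddx4* scaling, normexp, no filter, the brightest probe, other thresholds, the methods' t-test, the replicate number or slide as a block, the compared groups alone and leaving out each array. The factors, lists and comparisons were chosen with earlier results of these data known. Besides the factors, the genes named were those of the 2 lists called in mutant against control ovaries (at most 8 per list, by p), *Ddx4*, *Dazl*, *Stra8*, *Smad4*, and the 3 genes of nearest centred level for each called factor. Of the listed genes, 2 are not reported here and were left out of the counts. Precision is limited by 3 arrays per group, and 0 probes were saturated.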

Additional observations from a re-analysis of the deposited data

How the results depend on the processing

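In DKO against control ovaries 7 factors were called, where 14.7% of all genes were called in either direction. The count was 7 to 9 without any 1 array. It was 7 with the replicate block (14.4% of all genes) and 9 with the slide as a block (15.7%). In the methods' t-test it was 0 after adjustment (5.81%) and 7 before. With control ovary 1 as the only control, the median log2 difference over the 9 factors was 1.17. With normexp, 5 other pluripotency genes were called in place of 11, where 4.84% of all genes were called in place of 14.7%. For *Smad4 (Stella)* against control ovaries, the count was 0 to 1 without any 1 array and 2 in the methods' t-test before adjustment. For testes against control ovaries it was 3 with the slide as a block, where 33.7% of all genes were called. It was also 3 in the methods' t-test, where 28.8% of all genes were called. For DKO against *Smad4 (Stella)* ovaries it was 4, where 8.44% of all genes were called in either direction. It was 1 with the deposited table (2.77% of all genes), 2 without the filter on dim probes (4.18%) and 0 with the slide as a block (4.93%). In the methods' t-test it was 0 after adjustment (0.445%) and 8 before. It was 0 to 4 without any 1 array. It was 5 in a fit to the compared groups alone (5.91%), with *Pou5f1* and *Dppa3* added and *Utf1* lost. For DKO ovaries against testes it was 3, all higher. It was 5 with *Ddx4* scaling, of which *Pou5f1*, *Utf1* and *Prdm1* were lower, where 59.2% of all genes were called. It was 5 with the slide as a block, all higher, with *Tfap2c* and *Dppa3* added, where 21.4% of all genes were called. It was 1 in the methods' t-test, where 17.9% of all genes were called, and 1 to 3 without any 1 array. For *Smad4 (Stella)* ovaries against testes it was 5, and 2 with the deposited table, where 22.2% of all genes were called. It was 3 with normexp (11.7% of all genes), without the filter (19.2%) or at 2-fold. It was 0 with the slide as a block (17.2%) and 3 to 5 without any 1 array. The replicate block gave 3 for DKO against *Smad4 (Stella)* ovaries in place of 4, *Utf1* being lost, where 7.87% of all genes were called. Samples with the same number correlated in their deviations from the group means by -0.18 to 0.15, and those with different numbers by -0.17 to 0.14. The main fit therefore used no pairing by number, but whether the numbers mark litters cannot be told from these values.

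Differences changed sign in these cases, the cause of which was not tested. In *Smad4 (Stella)* against control ovaries, *Prdm1* was -0.028 with normexp and -0.20 to 0.31 without any 1 array, and *Tfap2c* 0.29 with the deposited table, 0.11 with *Ddx4* scaling, 0.59 with the slide as a block and -0.54 to 0.33 without any 1 array. Against control ovary 1 alone, *Sall4* was -0.26, *Esrrb* -0.10, *Prdm1* -0.61 and *Dppa3* -0.24, and *Tfap2c* was -0.27 in DKO ovaries. In testes against control ovaries, *Sox2* was -0.75 and *Tfap2c* -0.74 with the slide as a block, which here gives the same differences as control ovary 1 alone. Likewise, the slide block repeats the slide 2 differences for DKO against control ovaries and the slide 3 differences for DKO against *Smad4 (Stella)* ovaries. Without any 1 array, *Sox2* was -0.20 to 0.63 and *Tfap2c* -0.22 to 0.65 in testes against control ovaries. In *Smad4 (Stella)* ovaries against testes with the slide as a block, *Pou5f1* was 0.041, *Nanog* 2.07, *Sall4* 0.11, *Esrrb* 2.24, *Prdm1* 0.39, *Tfap2c* 1.34 and *Dppa3* 0.84. With the deposited table *Nanog* was 0.018, *Esrrb* 0.11 and *Tfap2c* 0.042, and *Esrrb* was -0.51 to 0.062 without any 1 array. In DKO ovaries against testes with the slide as a block, *Pou5f1* was 1.20, *Utf1* 0.20, *Prdm1* 0.86 and *Dppa3* 1.95. With *Ddx4* scaling *Sall4* was -0.46 and *Tfap2c* -0.23, *Prdm1* was 0.072 with normexp, and *Dppa3* was 0.054 with quantile normalization, 0.11 with the deposited table and -0.12 to 0.12 without any 1 array. The median difference of all genes with the deposited table was 0.40 in *Smad4 (Stella)* and 0.19 in DKO against control ovaries, and with normexp it was 0.26 in DKO against control ovaries. The 3 control ovaries had 3 genotypes and lay on 2 slides, which limits every comparison with them.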
